A study of Mus musculus with 24 samples.

Results

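Titin, the Z-disc, the M-band and the factors that assemble and turn over the sarcomere were followed here in mouse cardiomyocytes in which coactivators of serum response factor were targeted in different combinations. The set holds 31 genes, chosen by name from the count table as the scaffold and maintenance genes of the sarcomere, with the actins, myosins, troponins and LIM proteins left aside. All 31 are among the 23337 genes of the table, and all 31 passed the filter on low counts, as 12281 genes did in all. Klhl41 is listed under its older symbol Kbtbd10. None of the 31 lies within 10 Mb of the targeted genes Myocd, Mrtfa (listed as Mkl1) and Mrtfb (listed as Mkl2).

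A sarcomere is the repeating unit of a myofibril. Its thin filaments are anchored in the Z-disc by crosslinking proteins, its thick filaments are tied together in the M-band, and titin runs as an elastic molecule between these lattices. Capping and nucleating proteins set the length of the thin filaments, chaperones fold myosin and other filament proteins, ubiquitin ligases remove them, and intermediate filaments link neighbouring Z-discs. Serum response factor binds CArG boxes in the promoters of many muscle genes, and myocardin and the myocardin-related factors are its coactivators.

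Cardiomyocytes came from mice that all carried a Cas9 allele at the Rosa locus, were injected with an adeno-associated virus (AAV) on postnatal day 1 and were 4 weeks old at collection. MKO mice were Rosa-Cas9/Cas9 and received AAV-Myocd-sgRNA, a virus with a guide RNA against Myocd. DKO mice, with Mrfta-/-, Mrtfb-F/F and Rosa-Cas9/Cas9 in the spelling of the labels, received AAV-Cre. TKO mice had the DKO genotype and received AAV-Myocd-sgRNA. Ctrl mice were Rosa-Cas9/Cas9 and received AAV-Cre. The labels of the TKO group name the guide virus and no Cre virus, and the promoters that drive Cas9, the guide and Cre are not given in the sources used here. Each group has 6 libraries of polyadenylated RNA from cells isolated by Langendorff perfusion and flow sorting. Separate animals are not stated for the libraries within a group, and p-values therefore reflect library-to-library spread, which may be partly technical.

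Libraries held 9.73 to 13.2 M counts in MKO, 5.83 to 12.2 M in DKO, 10.2 to 17.2 M in TKO and 8.02 to 11.5 M in Ctrl. Levels are given in CPM, read counts per M counts of the effective library size. The targeted genes were checked first. Mkl1 was at 1.40 to 2.77 CPM in DKO and 1.33 to 2.66 CPM in TKO, against 6.39 to 11.9 CPM in MKO and 4.81 to 11.3 CPM in Ctrl. Mkl2 was at 26.6 to 39.3 CPM in DKO and 27.5 to 42.5 CPM in TKO, against 44.1 to 59.2 CPM in MKO and 44.8 to 55.9 CPM in Ctrl. Myocd RNA was at 119.8 to 187 CPM in MKO and 175 to 323 CPM in TKO, against 153 to 234 CPM in Ctrl. A guide-made lesion need not lower the RNA, so these Myocd counts do not check the MKO and TKO labels. Library DKO 1 stands apart by gene length: its long genes (7 kb and over) were lower relative to its short ones (under 2 kb) by a median of -1.50 on the log2 scale, against -0.29 to 0.33 in the other 23 libraries. For Flnc, Myoz2, Myot, Hspb7, Nebl, Bag3 and Synm, and for the counts of calls, values without DKO 1 are also given. By sex-linked transcripts, 4 MKO, 1 DKO, 3 TKO and 4 Ctrl libraries came from males.

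Levels between genes are compared only after division by gene length. Per kilobase of exon, the Ctrl libraries placed Mybpc3 (cardiac myosin-binding protein C, which lies on the thick filament) first with 2341 ± 214 CPM per kb and Actn2 (alpha-actinin, which crosslinks thin filaments in the Z-disc) next with 2147 ± 123 CPM per kb (SD, n = 6). The ranges of these neighbours overlapped, and Actn2 lay above the highest library of Des. Des (desmin, the main muscle intermediate filament protein) reached 1251 ± 128 CPM per kb, Cryab (a small heat shock protein) 895 ± 137, Myoz2 (calsarcin-1, which binds alpha-actinin and calcineurin) 691 ± 99.1, and Hspb7 (a cardiac small heat shock protein) 489 ± 64.1 CPM per kb. Ttn, in total counts among the highest of the set, came 25th with 47.6 ± 12.9 CPM per kb. Its exons sum to 104.32 kb in the table. The lowest levels per kb in Ctrl were those of Myot (5.05 ± 1.12), Mybphl (1.26 ± 2.03), Myom3 (0.699 ± 0.130) and Synm (0.205 ± 0.0731), in CPM per kb. Besides Actn2 above Des, neighbours in the order were apart in all 6 libraries for Myoz2 above Hspb7, Bag3 above Lmod3, Flnc above Synpo2, Synpo2 above Myot and Myom3 above Synm, and the ranges of the other neighbours overlapped.

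**Figure D1:**
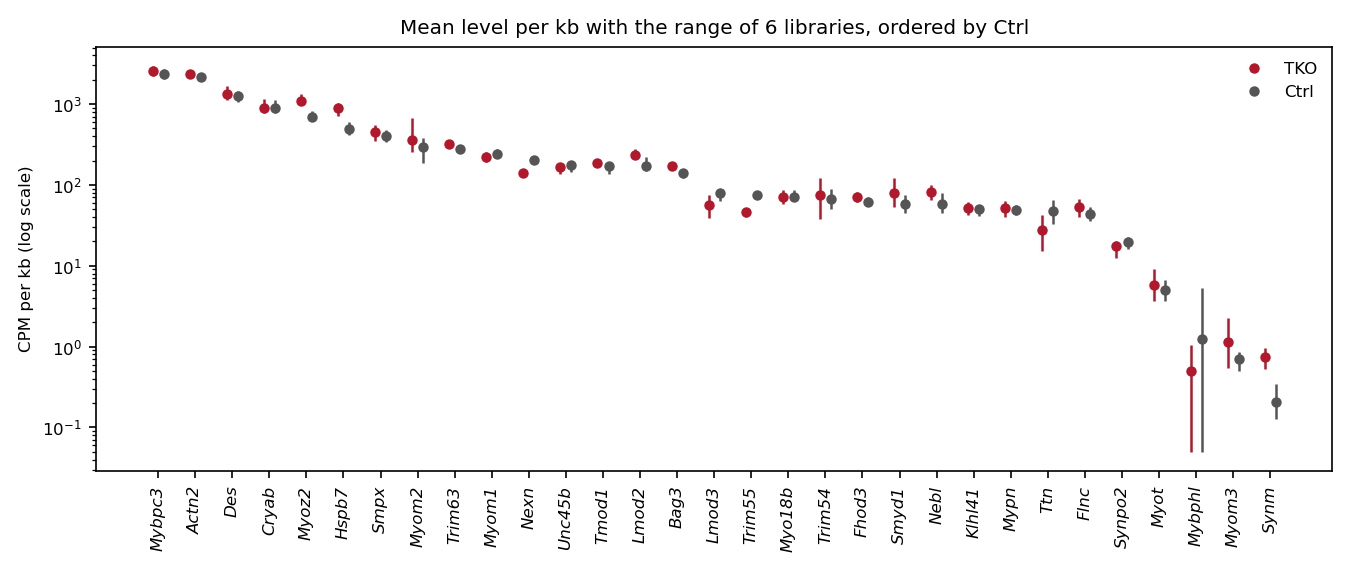
Mean level of the 31 genes in CPM per kb of exon (log scale), TKO in red and Ctrl in grey, in the order of the Ctrl means; vertical lines span the 6 libraries of a group. The order runs between Mybpc3 at 2341 and Synm at 0.205 CPM per kb in Ctrl; where the line of Mybphl reaches its lowest drawn point, a library was at 0.

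Promoters of the genes described below are shown because serum response factor is the partner of the targeted coactivators. RefSeq entries on GRCm38.p6 matched 23 of the 31 genes, with 27 promoter windows; Cryab, Myo18b, Lmod3, Myom2, Trim55, Fhod3, Myot and Nexn are without one. The CArG box was searched on both strands in the windows of 250 bases before to 50 bases after each start, and an exact match stood in 2 of 27 windows (7.41%), against 1.63% of all 32851 windows in the table. With 1 mismatch allowed, a match stood in 33.3% of the windows of these genes and in 21.1% of all windows. A match is a description of letters and shows no binding, and a window without one says only that the letters are not there. The exact matches belong to Myom1, 99 bases before the start, and to 1 of the 4 windows of Nebl. The 250 bases before the start follow 5′ to 3′ for Myom1 (chr17:71019307-71019556, plus strand), with its exact match in capitals, and with matches of 1 mismatch in capitals for Ttn (chr2:76982548-76982797, minus strand; 120 bases before the start), Lmod2 (chr6:24597521-24597770, plus strand; 196 and 32 bases before) and Synm (chr7:67759743-67759992, minus strand; 239 bases before).
Myom1: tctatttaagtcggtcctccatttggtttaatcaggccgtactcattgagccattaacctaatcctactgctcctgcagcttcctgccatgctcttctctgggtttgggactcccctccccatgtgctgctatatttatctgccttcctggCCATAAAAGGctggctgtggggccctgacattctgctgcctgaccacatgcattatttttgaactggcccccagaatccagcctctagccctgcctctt
Ttn: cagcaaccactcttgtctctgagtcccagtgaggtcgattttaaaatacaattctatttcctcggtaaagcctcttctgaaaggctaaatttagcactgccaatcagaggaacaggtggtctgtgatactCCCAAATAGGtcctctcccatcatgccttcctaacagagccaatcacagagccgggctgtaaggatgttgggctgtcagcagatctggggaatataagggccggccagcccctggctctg
Lmod2: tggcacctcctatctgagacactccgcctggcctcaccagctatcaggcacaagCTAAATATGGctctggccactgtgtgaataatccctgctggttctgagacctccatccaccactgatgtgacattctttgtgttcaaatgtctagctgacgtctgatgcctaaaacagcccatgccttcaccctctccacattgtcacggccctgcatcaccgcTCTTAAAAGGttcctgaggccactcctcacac
Synm: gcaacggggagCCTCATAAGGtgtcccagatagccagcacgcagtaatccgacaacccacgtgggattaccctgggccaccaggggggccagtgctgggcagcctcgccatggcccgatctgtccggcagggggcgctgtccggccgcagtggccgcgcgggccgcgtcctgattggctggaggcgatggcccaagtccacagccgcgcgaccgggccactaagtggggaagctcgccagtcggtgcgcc
In these 250 bases, Ttn, Lmod2 and Synm hold a near match, while Ttn RNA was lower and Lmod2 and Synm RNA were higher in TKO than in Ctrl. Flnc, Smyd1, Trim54, Unc45b and Nebl, not called in TKO versus Ctrl, hold one too, and Myoz2 and Hspb7, called higher, hold none.

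In TKO cardiomyocytes 8 of the 31 genes changed against Ctrl by edgeR's quasi-likelihood test at an adjusted p under 0.05, 4 in each direction. Myoz2, Lmod2, Hspb7 and Synm rose, and Ttn, Nexn, Lmod3 and Trim55 fell. The 8 calls are 25.8% of the set, beside 14.1% of all genes tested that were called in TKO versus Ctrl (12.9% of the set and 8.14% of all genes higher, 12.9% and 5.98% lower). By the same test 11 members (35.5%) had an unadjusted p under 0.05, beside 27.0% of all genes. Without DKO 1, 6 members were higher and 4 lower, with 22.7% of all genes then called. For each of the 8 genes all 6 TKO libraries lay beyond the Ctrl mean on the called side. These genes were picked by their call in the same libraries, so this describes the calls and adds no separate evidence. In 5 of the 31 genes the TKO and Ctrl libraries did not overlap (Myoz2, Nexn, Trim55, Hspb7 and Synm), or 16.1%, beside 8.15% of all genes. The median log2 ratio of the set was 0.14, beside -0.01 over all genes tested. In bulk RNA, fewer cells of a type and less RNA per cell cannot be told apart.

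With 1 factor class targeted, no member passed the test. In MKO versus Ctrl 0 of 31 members were called by edgeR, beside 0% of all genes; 5 members (16.1%) had an unadjusted p under 0.05, beside 6.2% of all genes, and DESeq2 and limma voom also called 0. No member's MKO and Ctrl libraries lay fully apart, beside 0.586% of all genes. In DKO versus Ctrl edgeR called 0 of 31, beside 0.635% of all genes; 8 members (25.8%) had an unadjusted p under 0.05, beside 10.5% of all genes. DESeq2 called 3 lower (Mybpc3, Trim55 and Nexn), and voom called 2 lower (Trim55 and Nexn) and 1 higher (Synm). The share of all genes called by DESeq2 and by voom is not given here. Nexn was the only member whose 6 DKO libraries lay apart from the 6 Ctrl libraries, 3.23% of the set beside 0.993% of all genes. Median log2 ratios of the set were -0.11 in MKO and -0.08 in DKO, beside 0.00 and 0.02 over all genes. All 3 comparisons share the Ctrl libraries.

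**Figure D2:**
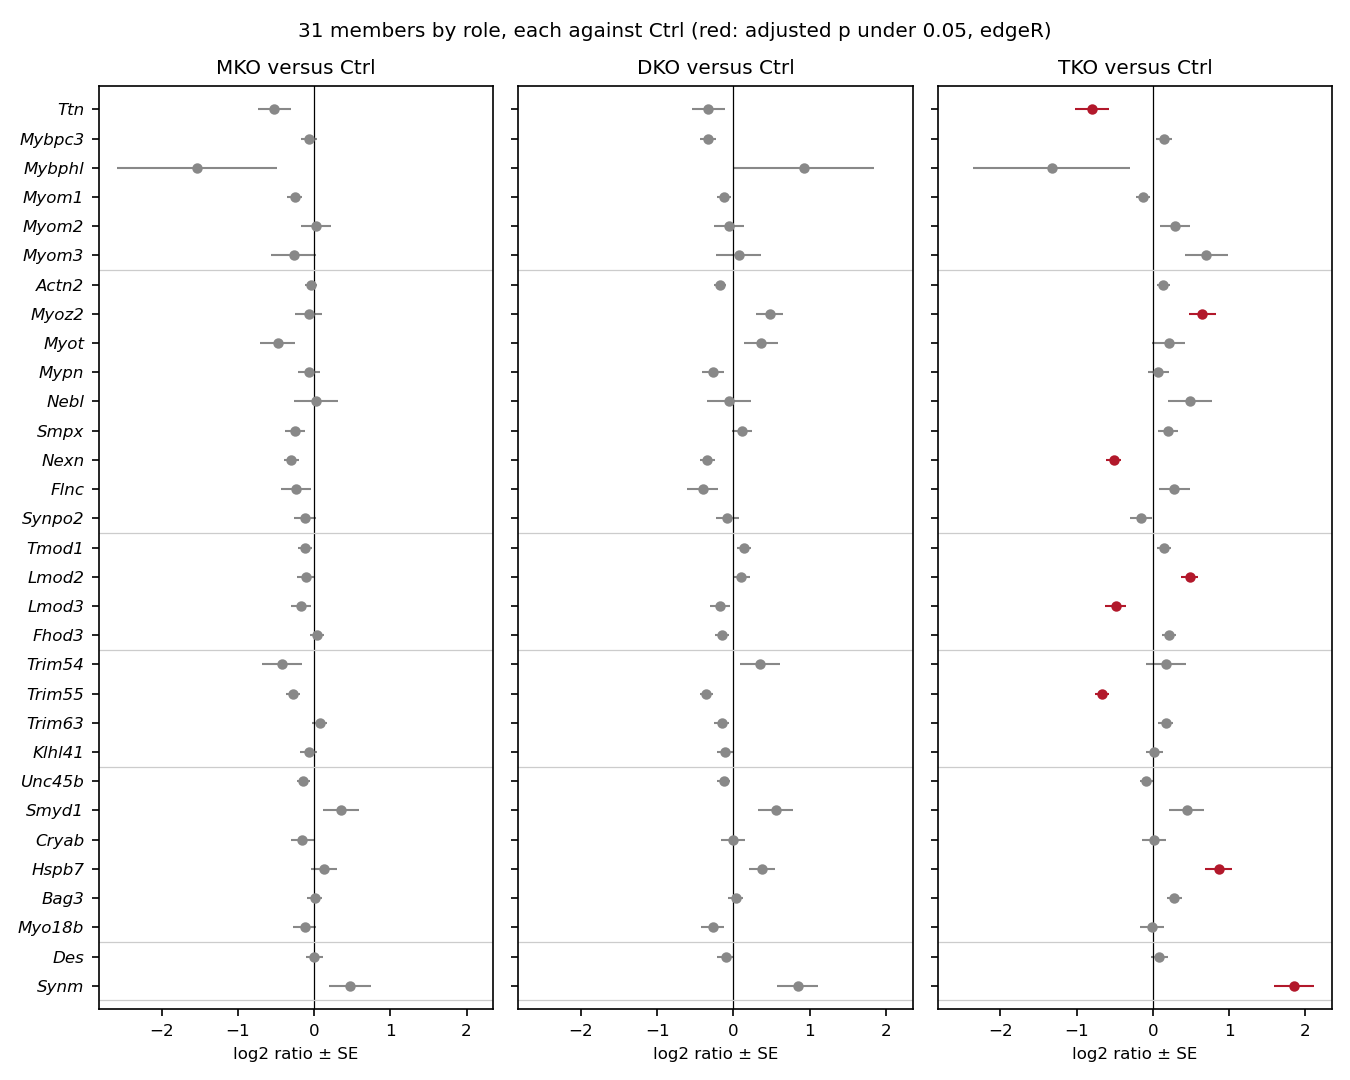
Log2 ratio to Ctrl ± SE of the 31 genes (6 libraries a group, edgeR), grouped by role with thin lines between roles, for MKO, DKO and TKO; red marks an adjusted p under 0.05. Red points appear in the TKO panel alone, 4 to the right of 0 and 4 to the left, with Synm farthest right at 1.85.

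Of the 6 genes of titin, the thick filament and the M-band, Ttn alone changed in TKO versus Ctrl. Ttn (chromosome 2, 76703984 to 76982547), the elastic backbone of the sarcomere, lay at 1602 to 4364 CPM (median 2933) in TKO and 3457 to 6843 CPM (median 5016) in Ctrl. It lay at 2317 to 4495 CPM (median 3506) in MKO and 3184 to 4474 CPM (median 4116) in DKO. The ranges of all 4 groups overlapped; the log2 ratio was -0.80 ± 0.22 (adjusted p = 0.0151) in TKO, -0.52 ± 0.22 (adjusted p = 0.767) in MKO and -0.33 ± 0.22 (adjusted p = 0.631) in DKO. Ttn is far longer than any other member, and in DKO 1 it lay inside the range of the other DKO libraries. Ttn tended to be lower in higher-numbered libraries of Ctrl (6843 CPM in Ctrl 1, 3457 in Ctrl 6) and of MKO (4384 in MKO 1, 2317 in MKO 6). DKO showed no such order (4383 CPM in DKO 1, 4474 in DKO 5). The TKO versus Ctrl call held in all 32 alternatives, the replicate block included, with adjusted p up to 0.0477. What this order reflects was not tested. Mybpc3 (chromosome 2, 91118144 to 91136516) lay at 9291 to 12172 CPM (median 10854) in TKO, 5590.3 to 8761 CPM (median 7866) in DKO, 8212 to 10085 CPM (median 9683) in MKO and 8510.0 to 11176 CPM (median 9637) in Ctrl. Every TKO library exceeded every DKO library, and TKO and Ctrl overlapped: Mybpc3 rose in TKO versus DKO, with a log2 ratio of 0.48 ± 0.11 (adjusted p = 0.00727), and differed from Ctrl by 0.14 ± 0.11 (adjusted p = 0.424) in TKO and -0.34 ± 0.11 (adjusted p = 0.213) in DKO. Myom3 (chromosome 4, 135759715 to 135815564), a myomesin of the M-band, was scarce at 2.99 to 12.5 CPM (median 5.76) in TKO, 2.61 to 3.8 CPM (median 3.22) in MKO, 1.8 to 7.51 CPM (median 3.61) in DKO and 2.77 to 4.73 CPM (median 3.86) in Ctrl. TKO overlapped every other group, and Myom3 was higher in TKO than in MKO by 0.97 ± 0.29 (adjusted p = 0.0264), with 5 of 6 TKO libraries above the MKO mean. Myom1 and Myom2, the abundant myomesins, and Mybphl passed the test in no comparison; their log2 ratios in TKO versus Ctrl were -0.13 ± 0.10, 0.29 ± 0.19 and -1.33 ± 1.03.

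Among the 9 Z-disc genes, Myoz2 rose and Nexn fell in TKO versus Ctrl. Myoz2 (chromosome 3, 123006206 to 123034987) lay at 1116 to 1525 CPM (median 1208) in TKO and 713 to 950.0 CPM (median 733) in Ctrl. It lay at 690.3 to 842 CPM (median 750.1) in MKO and 861 to 2181 CPM (median 892) in DKO. TKO lay wholly above Ctrl and above MKO, and the highest DKO value is library DKO 1, the other 5 reaching at most 945 CPM. Myoz2 had a log2 ratio of 0.64 ± 0.18 (adjusted p = 0.0142) to Ctrl and of 0.71 ± 0.18 (adjusted p = 0.00913) to MKO in TKO. Against DKO the ratio was 0.17 ± 0.18 (adjusted p = 0.571) with all libraries and 0.49 (adjusted p = 0.00149) without DKO 1. Nexn (chromosome 3, 152236984 to 152266320), nexilin, an actin-binding protein of the Z-disc and of junctional membranes, lay at 328 to 399.5 CPM (median 362) in TKO and 377 to 448 CPM (median 413) in DKO. It lay at 317 to 522 CPM (median 425) in MKO and 459 to 579 CPM (median 523) in Ctrl. Every TKO and every DKO library was below every Ctrl library, while MKO overlapped Ctrl. The log2 ratio to Ctrl was -0.52 ± 0.10 (adjusted p = 0.000571) in TKO, -0.34 ± 0.10 (adjusted p = 0.134) in DKO and -0.30 ± 0.10 (adjusted p = 0.698) in MKO.

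Actn2 and Flnc rose in TKO versus DKO, and Myot and Smpx rose in TKO versus MKO. Actn2 (chromosome 13, 12269427 to 12340732) lay at 6364 to 7627 CPM (median 7037) in TKO, 5598 to 7016 CPM (median 6284) in MKO, 5276 to 6207 CPM (median 5764) in DKO and 5967 to 6953 CPM (median 6419) in Ctrl. Every TKO library was above every DKO library, by a log2 ratio of 0.31 ± 0.08 (adjusted p = 0.0205), and TKO overlapped Ctrl. Flnc (chromosome 6, 29433153 to 29461888), filamin C, which crosslinks actin at the Z-disc edge and at intercalated discs, lay at 369 to 607 CPM (median 489) in TKO, 114 to 413 CPM (median 325) in DKO, 286 to 404 CPM (median 339) in MKO and 325 to 485 CPM (median 377) in Ctrl. The lowest DKO value is DKO 1, and TKO and DKO overlapped; the log2 ratio was 0.68 ± 0.20 (adjusted p = 0.0409), and 0.52 (adjusted p = 0.0254) without DKO 1. Myot (chromosome 18, 44334074 to 44355722), myotilin, lay at 8.19 to 20.01 CPM (median 11.7) in TKO, 6.3 to 9.68 CPM (median 7.8) in MKO, 10.3 to 26.6 CPM (median 12) in DKO and 8.02 to 14.7 CPM (median 11) in Ctrl. Its TKO and MKO ranges overlapped, with a log2 ratio of 0.68 ± 0.22 (adjusted p = 0.0439). Smpx (chromosome X, 157698973 to 157752591), a small stretch-responsive muscle protein, lay at 393 to 623 CPM (median 517) in TKO, 317 to 419 CPM (median 394) in MKO, 399.6 to 735 CPM (median 445) in DKO and 383 to 545 CPM (median 422) in Ctrl. TKO and MKO overlapped in Smpx too, with a log2 ratio of 0.44 ± 0.13 (adjusted p = 0.03). Mypn (myopalladin), Nebl (nebulette) and Synpo2 (myopodin) passed the test in no comparison; in TKO versus Ctrl their log2 ratios were 0.07 ± 0.14, 0.49 ± 0.29 and -0.15 ± 0.15. Nebl had an adjusted p of 0.294 with all 24 libraries and 0.0107 without DKO 1, where it was at 20.8 CPM beside 153 to 231 CPM in the other DKO libraries.

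The leiomodins, which nucleate and lengthen thin filaments, moved in opposite directions in TKO. Lmod2 (chromosome 6, 24597771 to 24605414) lay at 434 to 542 CPM (median 449) in TKO and 290.0 to 439 CPM (median 318) in Ctrl. It lay at 237 to 355 CPM (median 327) in MKO and 296 to 402 CPM (median 375) in DKO. All TKO libraries were above all MKO and DKO libraries, and a single Ctrl library, Ctrl 3, reached into the TKO range. Lmod2 rose by 0.48 ± 0.11 (adjusted p = 0.00433) against Ctrl, 0.38 ± 0.11 (adjusted p = 0.0407) against DKO and 0.59 ± 0.11 (adjusted p = 0.000918) against MKO, in log2. Lmod3 (chromosome 6, 97238528 to 97252780) lay at 88.4 to 171 CPM (median 129) in TKO and 141 to 198 CPM (median 178) in Ctrl. It lay at 135 to 172 CPM (median 161) in MKO and 117 to 187 CPM (median 159) in DKO. Lmod3 overlapped between all groups and had a log2 ratio of -0.49 ± 0.13 (adjusted p = 0.014) in TKO versus Ctrl. Fhod3 (chromosome 18, 24709445 to 25133501), a formin of cardiac thin filaments, lay at 334 to 438 CPM (median 389) in TKO, 247 to 337 CPM (median 302) in DKO, 281 to 382 CPM (median 352) in MKO and 309 to 384 CPM (median 329.6) in Ctrl. Fhod3 rose in TKO versus DKO by 0.36 ± 0.09 (adjusted p = 0.0162) with ranges that overlapped, and its ratio to Ctrl in TKO was 0.21 ± 0.09 (adjusted p = 0.128). Tmod1 (tropomodulin, the cap of the pointed ends) was called in no comparison; it lay at 516 to 569.7 CPM (median 535) in TKO and 405 to 485 CPM (median 457) in MKO. These ranges did not overlap, with a log2 ratio of 0.26 ± 0.09 (adjusted p = 0.0684).

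Because Lmod2 and Lmod3 parted, the ratio of related members is given within each library for paralogs chosen after their values were seen, as a description with no test. The log2 ratio of Lmod2 to Lmod3 reads was 1.39 to 2.62 (median 1.82) in TKO and 0.55 to 1.15 (median 0.91) in Ctrl, with no overlap. In DKO the ratio was 0.94 to 1.77 and in MKO 0.63 to 1.22, both overlapping Ctrl. The log2 ratio of Trim55 to Trim63 reads was -3.18 to -2.69 (median -2.73) in TKO, -2.53 to -2.15 (median -2.37) in MKO and -2.14 to -1.89 (median -1.98) in Ctrl. Neither TKO nor MKO overlapped Ctrl in this ratio. DKO libraries spanned -2.47 to -1.78 and overlapped Ctrl. Of the 8 pairs of paralogs, only these had a group apart from Ctrl in all 6 libraries.

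**Figure D3:**
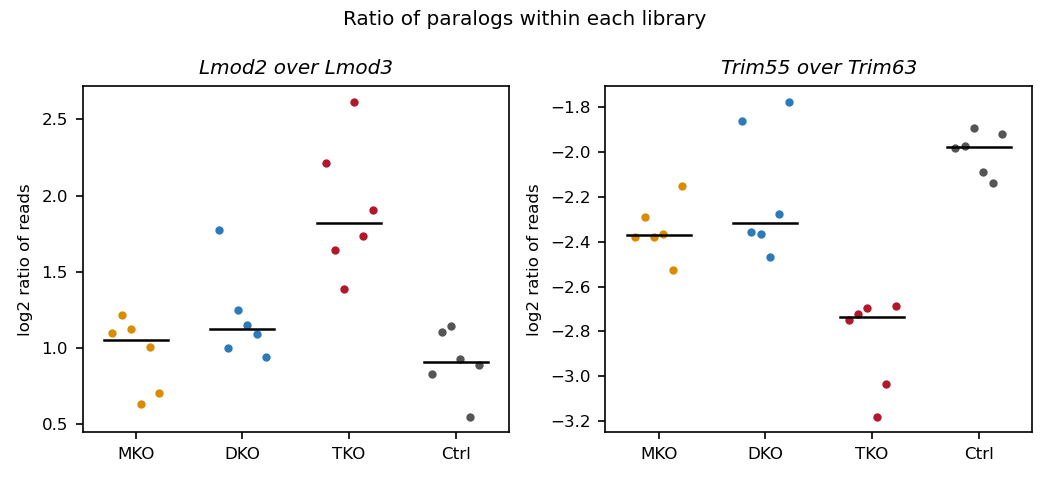
Log2 ratio of reads within each library for Lmod2 over Lmod3 (left) and Trim55 over Trim63 (right), for 6 libraries each of MKO, DKO, TKO and Ctrl; black lines are medians. The TKO points lie above all Ctrl points for Lmod2 over Lmod3 and below all Ctrl points for Trim55 over Trim63, and the MKO points of Trim55 over Trim63 also lie below Ctrl.

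Of the ubiquitin ligases and their adaptors, Trim55 fell in TKO and the other 3 did not pass. Trim55 (chromosome 3, 19644460 to 19691599), the muscle RING-finger ligase MuRF2, lay at 72.2 to 93.2 CPM (median 85.6) in TKO, 99.3 to 128 CPM (median 108) in MKO, 91.1 to 124 CPM (median 101) in DKO and 120.2 to 142 CPM (median 135) in Ctrl. TKO lay wholly below Ctrl and wholly below MKO, and overlapped DKO. The log2 ratio in TKO was -0.67 ± 0.09 (adjusted p = 9.07e-06) to Ctrl, -0.40 ± 0.09 (adjusted p = 0.0039) to MKO and -0.32 ± 0.09 (adjusted p = 0.0311) to DKO. The ratio to Ctrl was -0.35 ± 0.09 (adjusted p = 0.0659) in DKO, where RLE scaling, DESeq2 and voom placed it under 0.05, and -0.27 ± 0.09 (adjusted p = 0.698) in MKO. Trim63 (MuRF1) had a log2 ratio of 0.17 ± 0.10 (adjusted p = 0.294) and Trim54 (MuRF3) of 0.17 ± 0.26 (adjusted p = 0.722) in TKO versus Ctrl. Klhl41, a Kelch-domain adaptor of Cullin-3 ligases in muscle, was at 0.02 ± 0.11 (adjusted p = 0.928). Among the assembly factors and chaperones, Hspb7 was the member that rose. Hspb7 (chromosome 4, 141420779 to 141425310) lay at 1953 to 2879.5 CPM (median 2410.1) in TKO, 1197 to 1766 CPM (median 1452) in MKO, 1209.7 to 3239.6 CPM (median 1506) in DKO and 1158 to 1643 CPM (median 1308) in Ctrl. TKO was above all Ctrl and all MKO libraries; the highest DKO value is DKO 1, and the other 5 DKO libraries were at most 1646 CPM. Hspb7 had a log2 ratio of 0.86 ± 0.17 (adjusted p = 0.00128) to Ctrl and 0.73 ± 0.17 (adjusted p = 0.00684) to MKO. Against DKO the ratio was 0.49 ± 0.17 (adjusted p = 0.0944), and 0.76 (adjusted p = 0.000162) without DKO 1.

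The other chaperones and assembly factors passed in no comparison. Bag3, the co-chaperone that partners small heat shock proteins, was nearest, with a log2 ratio of 0.28 ± 0.10 (adjusted p = 0.0624) in TKO versus Ctrl and an adjusted p of 0.0392 without DKO 1. Unc45b (the myosin chaperone) was at -0.08 ± 0.08, Smyd1 (a methyltransferase of myofibril assembly) at 0.44 ± 0.23, Cryab at 0.01 ± 0.15 and Myo18b (an unconventional myosin needed for myofibril formation) at -0.02 ± 0.15. Of the intermediate filament genes, Synm had the largest ratio of the set in TKO versus Ctrl and Des was not called. Synm (chromosome 7, 67730161 to 67759742), synemin, which pairs with desmin, lay at 4.18 to 7.64 CPM (median 6.09) in TKO and 0.995 to 2.68 CPM (median 1.48) in Ctrl. It lay at 0.999 to 4.86 CPM (median 2.98) in DKO and 1.53 to 2.7 CPM (median 2.29) in MKO. Every TKO library was above every Ctrl and MKO library, and TKO and DKO overlapped. The log2 ratio was 1.85 ± 0.26 (adjusted p = 2.19e-05) in TKO, 0.84 ± 0.27 (adjusted p = 0.216) in DKO and 0.47 ± 0.27 (adjusted p = 0.786) in MKO, each against Ctrl. The lowest DKO value is DKO 1, with 5 reads. Without DKO 1 the DKO ratio to Ctrl was 0.97 (adjusted p = 0.0486). The authors' DESeq2 result, which leaves out DKO 1 and Ctrl 3, was 0.87 (adjusted p = 0.168). TKO versus MKO gave 1.38 ± 0.25 (adjusted p = 0.00051) and TKO versus DKO 1.01 ± 0.25 (adjusted p = 0.0129). Synm was the least abundant member per kb in Ctrl. Its ratios to Ctrl rest on few reads, 8 to 22 in a Ctrl library and 48 to 113 in a TKO library. Des had a log2 ratio of 0.09 ± 0.11 (adjusted p = 0.675) in TKO versus Ctrl.

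**Figure D4:**
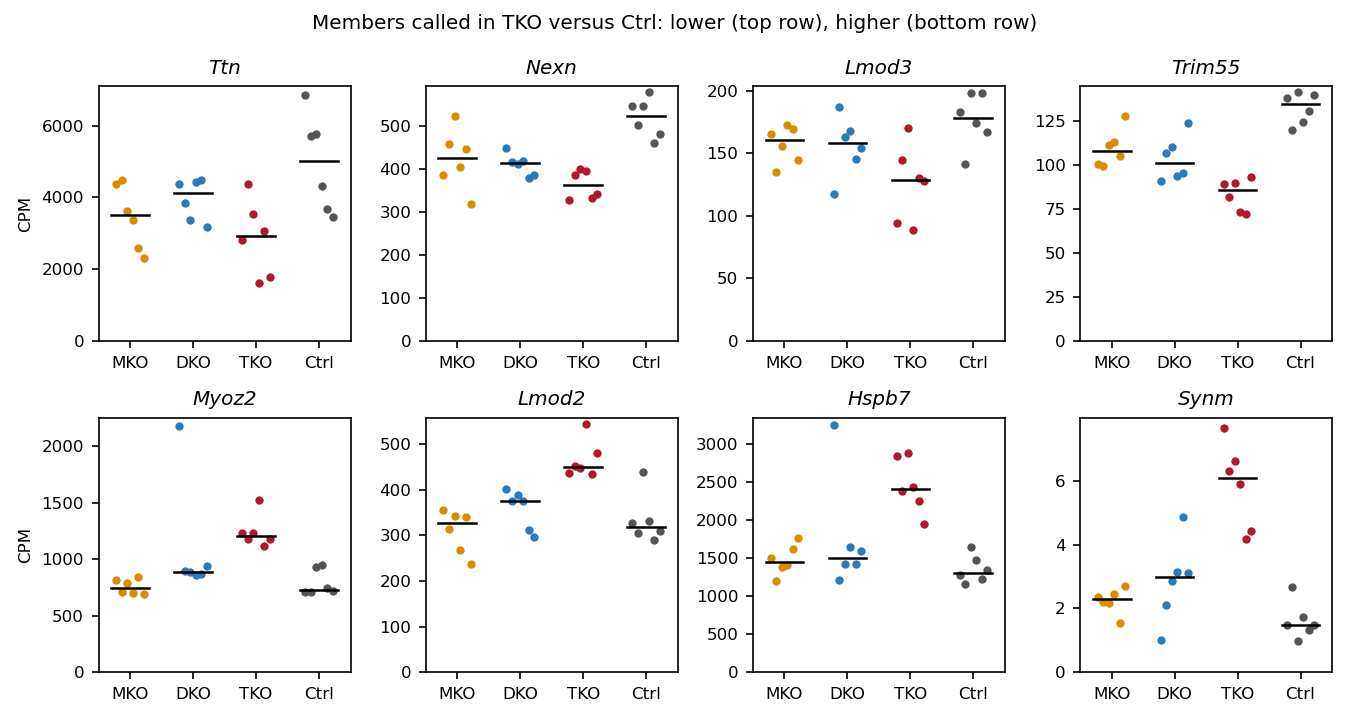
CPM of the 8 members called in TKO versus Ctrl in each of 6 libraries of MKO, DKO, TKO and Ctrl, with the axes starting at 0; black lines are medians. In the top row the TKO medians are below Ctrl (2933 against 5016 CPM for Ttn), and in the bottom row above it (6.09 against 1.48 CPM for Synm); the single high DKO points of Myoz2 and Hspb7 are library DKO 1.

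TKO was next set against DKO and against MKO. In TKO versus DKO, 7 of 31 members were called (22.6%), beside 6.38% of all genes: Mybpc3, Actn2, Flnc, Lmod2, Fhod3 and Synm were higher and Trim55 lower. In each, all 6 TKO libraries lay beyond the DKO mean, which describes genes picked by their call and adds no separate evidence. Over all genes 4.16% were called higher and 2.22% lower. In 3 of the 31 members (Mybpc3, Actn2 and Lmod2, or 9.68%) the libraries did not overlap, beside 3.53% of all genes. With only these 2 groups in the fit none of the 7 passed, and with these 2 groups and DKO 1 left out 8 were higher and 1 lower. The share of all genes called changes with the fit, and it is not given for these 2-group fits. Without TKO 3 there were 3 higher (Fhod3, Mybpc3 and Synm), and without DKO 1 there were 8, with 8.9% of all genes then called. Calls were also lost without DKO 2 (Actn2, Flnc, Lmod2 and Trim55), without DKO 6 (Flnc, Lmod2 and Trim55), without TKO 1 or TKO 6 (Flnc and Lmod2), without DKO 3 (Trim55), without TKO 2, 4 or 5 (Lmod2 and Trim55), and without Ctrl 1, Ctrl 6, MKO 3, MKO 5, DKO 4 or DKO 5 (Lmod2). The Lmod2 call, at an adjusted p of 0.0407, was lost in 16 of 33 alternatives, with adjusted p up to 0.108. In TKO versus MKO, 8 of 31 were called (25.8%), beside 13.3% of all genes: Myom3, Myoz2, Myot, Smpx, Lmod2, Hspb7 and Synm were higher and Trim55 lower. Over all genes 6.48% were called higher and 6.86% lower. For 6 members (Synm, Lmod2, Trim55, Hspb7, Myoz2 and Tmod1; 19.4%) the libraries did not overlap, beside 9.71% of all genes. Without MKO 6 the higher calls were 4 (Myoz2, Hspb7, Lmod2 and Synm), and without DKO 1 they were 11, with Nebl, Tmod1, Flnc and Bag3 added; 22% of all genes were then called. The Myom3 call was lost without MKO 6 or TKO 4, and that of Smpx without MKO 4, MKO 6, TKO 1, TKO 3 or TKO 6. The Myot call was lost in 10 of 32 alternatives (without MKO 1, 2, 4, 5 or 6, DKO 3, or TKO 1, 2, 4 or 6), with adjusted p up to 0.136.

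In DKO versus MKO edgeR called 0 of 31, beside 0.79% of all genes; 9 members (29.0%) had an unadjusted p under 0.05, beside 15.3% of all genes, and DESeq2 and voom each called Myot. The DKO libraries of Myot and Myoz2 lay wholly above the MKO libraries (6.45% of the set, beside 1.8% of all genes), with log2 ratios of 0.84 ± 0.23 (adjusted p = 0.0857) and 0.54 ± 0.18 (adjusted p = 0.162). DKO 1 was the highest DKO library of both. Without it the ratios were 0.60 (adjusted p = 0.141) for Myot and 0.24 (adjusted p = 0.253) for Myoz2. The interaction asks whether the TKO-to-DKO difference departs from the MKO-to-Ctrl difference. It called 0 of 31 members by edgeR, beside 0.464% of all genes, with 6 members (19.4%) at an unadjusted p under 0.05, beside 12.4% of all genes. DESeq2 called 2 (Actn2 and Mybpc3) and voom 5 (Actn2, Mybpc3, Myoz2, Hspb7 and Flnc), without a share of all genes beside them. The smallest adjusted p belonged to Mybpc3, 0.54 ± 0.15 (adjusted p = 0.119), and 27 of 31 estimates were above 0, with a median of 0.25, beside -0.02 over all genes. Leaving out DKO 1 gave 4 interaction calls (Mybpc3, Myoz2, Hspb7 and Flnc), beside 1.63% of all genes, and leaving out Ctrl 2 gave Mybpc3.

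Library DKO 1 departed from the other DKO libraries in a way that follows gene length. Of the 7 members under 2 kb other than Mybphl, 5 lay above the range of the other 5 DKO libraries, among them Myoz2 (2181 CPM, others 861 to 945) and Cryab (1766 CPM, others 809 to 1010). The remaining 2, Trim55 and Trim63, lay below that range. Of the 9 members of 5 kb and over, 8 lay below that range, among them Flnc (114 CPM, others 259 to 413) and Synm (0.999 CPM, others 2.11 to 4.86), and Ttn lay inside it. Between these lengths 5 of 14 lay above, 6 below and 3 inside. Nebl, at 2.98 kb, was lower in DKO 1 than its length class, by -3.25 on the log2 scale relative to the median of the other DKO libraries. The median of the SD of log2 CPM over 30 members was 0.29 in DKO (0.17 without DKO 1), 0.16 in MKO, 0.21 in TKO and 0.18 in Ctrl. What set DKO 1 apart was not tested.

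**Figure D5:**
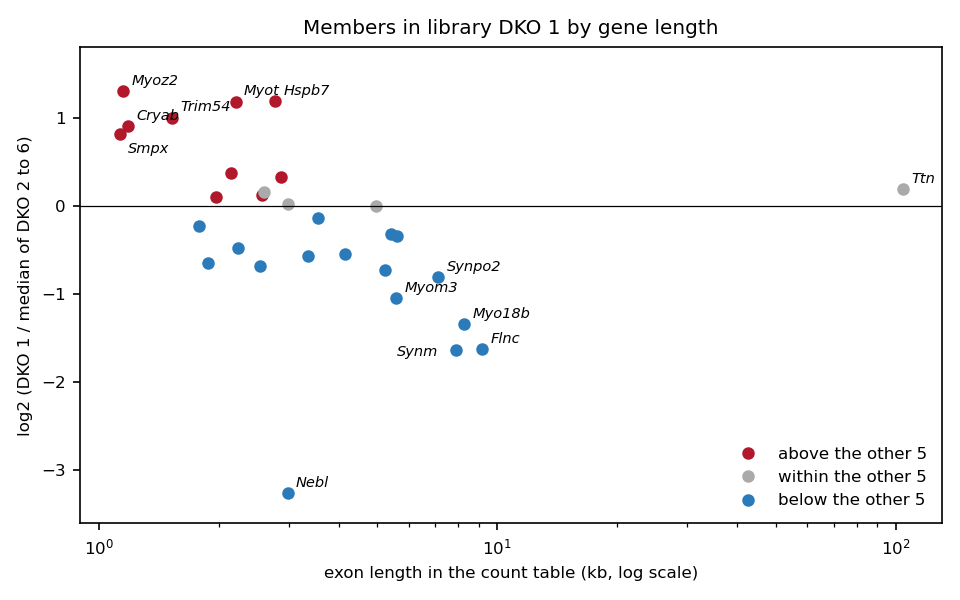
Log2 of the CPM in library DKO 1 over the median of the other 5 DKO libraries, against exon length in kb (log scale), for 30 members (Mybphl, with a library at 0, is left out); red is above and blue below all 5 others. Most short genes, such as Myoz2, lie above 0, but Trim55 and Trim63 lie below it. Most long ones, such as Flnc and Synm, lie below 0, and Nebl is lowest at -3.25.

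Mybphl, a myosin-binding protein H-like gene known from atrial muscle and the conduction system, was at 0 in 1 library of each group. It was highest in DKO 4 (8.24 CPM), DKO 1 (6.19) and DKO 6 (3.34) and in Ctrl 3 (6.84), against at most 1.45 CPM in the other libraries. The summed level of 3 atrial genes (Myl7, Myl4 and Sln), chosen after these values were seen, was 119 CPM in DKO 4, 70.1 in DKO 1, 59.9 in DKO 6 and 94.3 in Ctrl 3, against 3.91 to 22.2 CPM in the other 20 libraries. The libraries with the highest Mybphl are those with the highest atrial sum, and whether atrial cells gave these reads was not tested.

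Other genes of the pathway moved in both directions. Among 37 paralogs and partners, 29 were tested, and in TKO versus Ctrl 6 were higher and 3 lower (31%, beside 14.1% of all genes), with a median log2 ratio of -0.05. Synpo (synaptopodin, the relative of Synpo2) rose by 1.44 ± 0.16 (adjusted p = 8.23e-07), Mybpc2 (the fast skeletal myosin-binding protein C) by 1.39 ± 0.22 (adjusted p = 9.91e-05) and Mylk3 (cardiac myosin light chain kinase) by 0.56 ± 0.10 (adjusted p = 0.000219). Fbxl22, a cardiac F-box protein of the Z-disc, was lower by a log2 ratio of -1.60 ± 0.21 (adjusted p = 7.37e-06). Of 36 folding, assembly and turnover genes, 3 were higher and 1 lower (11.1%, beside the same 14.1%), with a median of 0.02. These were Fbxo32 (atrogin-1, a ligase of muscle protein loss; 1.13 ± 0.17, adjusted p = 4.73e-05), Daam1 (a formin; 0.48 ± 0.12, adjusted p = 0.00612), Hsp90aa1 (the myosin co-folding chaperone; 0.54 ± 0.16, adjusted p = 0.0295) and Klhl31 (-0.31 ± 0.10, adjusted p = 0.0466). In DKO versus Ctrl, Fbxo32 was the 1 call in the pathway lists (0.74 ± 0.17, adjusted p = 0.0365), and in MKO versus Ctrl there was none.

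The cells carried the markers of cardiomyocytes, and those of skeletal muscle were nearly absent: the sum of 11 skeletal markers was at most 8.19 CPM in any library and Myh1 was at 0 in all 24. The summed level of 12 cardiomyocyte markers was 102614 to 130722 CPM in TKO, 119733 to 138293 CPM in DKO and 133019 to 160186 CPM in MKO, against 144189 to 181614 CPM in Ctrl, and 5 of the 12 were lower in TKO versus Ctrl (Actc1, Tnnc1, Myl3, Myh6 and Atp2a2). Beside this and the other marker lists, 5.98% of all genes were called lower and 8.14% higher in TKO versus Ctrl. The 31 members together took 3.91 ± 0.21% of unscaled counts in TKO, 3.24 ± 0.20% in DKO and 3.29 ± 0.09% in MKO, against 3.41 ± 0.19% in Ctrl (SD, n = 6). After TMM scaling their sums overlapped, at 34241 to 42412 CPM in TKO and 33069 to 39888 CPM in Ctrl. Smooth muscle and pericyte markers summed to 956 to 1111 CPM in TKO, against 1716 to 2261 CPM in Ctrl, with 1 of 10 tested higher (Cspg4) and 1 lower (Acta2). Much of the difference between these sums is Acta2, at 114 ± 47.7 CPM in TKO and 777 ± 146 CPM in Ctrl (mean ± SD). Of the same list, Smtn and Abcc9 averaged 488 and 440 CPM over all libraries. Myh11, Tagln and Cnn1 averaged 7.30, 2.60 and 0.48 CPM. Which cells gave the Smtn and Abcc9 reads was not tested. Endothelial sums were 171 to 699 CPM in TKO and 167 to 1770 CPM in Ctrl, fibroblast sums 459 to 766 CPM in TKO and 234 to 835 CPM in Ctrl, and leukocyte sums 11.1 to 15.96 CPM in TKO and 5.60 to 15.4 CPM in Ctrl. Of 11 fibroblast markers tested, 2 were higher in TKO versus Ctrl, Fbln1 by 1.89 ± 0.23 (adjusted p = 3.45e-06) and Gsn by 0.48 ± 0.14 (adjusted p = 0.0196) in log2, and no endothelial or leukocyte marker was called. In TKO versus MKO 5 of 12 endothelial markers and 6 of 10 smooth muscle and pericyte markers were lower, beside 6.86% of all genes. Cspg4, of the smooth muscle and pericyte list, was higher by 0.76 ± 0.20 (adjusted p = 0.012) in log2. Of the fibroblast markers, Fbln1 was higher and Postn and Pdgfra were lower. The part of these markers in the results was not tested.

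In the authors' deposited table of TKO versus Ctrl 6 members were higher and 4 lower at an adjusted p under 0.05, with Nebl and Bag3 besides the 8 above. The authors' deposited tables call 9 higher and 1 lower in TKO versus DKO, 11 higher and 1 lower in TKO versus MKO, 2 lower in DKO versus Ctrl (Nexn and Trim55), 2 higher in DKO versus MKO (Myoz2 and Myot) and none in MKO versus Ctrl. The share of all genes called by the authors is not given here, so these member counts cannot be set against it. The mean normalized counts in these tables equalled, within 0.01% for 100% of genes over a mean of 1, means over the 2 groups compared without DKO 1 and Ctrl 3. The authors' calls with DKO or Ctrl therefore rest on fewer libraries than those above.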

How the data were processed

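Polyadenylated RNA of sorted cardiomyocytes was amplified with SMART-Seq v4 and made into Nextera XT libraries, per the labels' protocols; neither marks the strand, so overlapping genes cannot be told apart. The authors deposited whole-number read counts per gene for 24 libraries, with positions in mm10 and a Length column that holds summed exon bases, per the file headers. STAR, featureCounts and DESeq2 are named, without versions, in the submitters' processing notes. The treatment of multi-mapping reads is not given in the sources consulted, so paralogs such as the MuRF and leiomodin genes could share reads. A further 6 deposited tables compare pairs of groups with log2 fold changes, p-values and adjusted p-values, a Wald score and a baseMean signal, per the file headers; the score was not used, and baseMean only to find which libraries entered each table.

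Counts of all 24 libraries were fitted together with edgeR 4.0.16 in R 4.3.3 (quasi-likelihood test, two-sided, TMM scaling, filterByExpr with a minimum count of 10, 1 coefficient per group), and p-values were adjusted by Benjamini-Hochberg over 12281 genes. Adjusted p-values are from this fit where no other tool is given. There are 7 comparisons: each pair of groups, and an interaction defined as the TKO-DKO log2 difference less the MKO-Ctrl one. The edgeR fit was tried on simulated counts with known changes in TKO versus Ctrl. The other tools and comparisons were not tried in this way, and the simulation held no library like DKO 1. Ratios of paralogs used reads with 0.5 added to each. No 2 libraries of a group agreed within sampling noise (chi-square per gene 6.83 to 112 over 60 pairs). The 31 members, the lists of other genes and markers, and the rules were chosen with earlier results of these data known. Full values are given for members called in any comparison or lying apart from Ctrl in all 6 libraries, and for up to 4 genes per other list.

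Alternatives were RLE scaling, no filter on low counts, DESeq2 1.42.0, limma 3.58.1 voom with quality weights, the replicate number as a block, only the groups compared, 22 libraries without Ctrl 3 and DKO 1, each library left out, and a class by sex-linked transcripts. The paralog ratios and the 2-group fits without DKO 1 were added after seeing the data. Shares of all genes called are from the main fit unless another setting is named beside them.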

Additional observations from a re-analysis of the deposited data

Results flagged for a closer look

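In 15 of 124 groups of 6 libraries examined for the 31 members, 1 library lay far from the other 5 by Dixon's ratio of gap to range; chance flags about 1 in 20 groups. Library DKO 1 gave 8 of these values: Myoz2 at 2181 CPM, Myot at 26.6, Smpx at 735, Trim54 at 227, Cryab at 1766 and Hspb7 at 3240 CPM lay above the other 5 DKO libraries, and Nebl at 20.8 and Myo18b at 228 CPM lay below them. Myom2 was high in DKO 6 (2023 CPM, others 1157 to 1358). TKO 4 was high in Myom2 (3330 CPM, others 1252 to 1671) and in Myoz2 (1525 CPM, others 1116 to 1235). Ctrl 3 was high in Mybphl (6.84 CPM, others 0 to 1.12) and in Lmod2 (439 CPM, others 290 to 331). Synpo2 was high in MKO 3 (160 CPM, others 114 to 129), and Tmod1 was low in Ctrl 2 (396 CPM, others 493 to 529).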

How the results depend on the processing

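All 8 calls of TKO versus Ctrl held in the 32 alternatives run on them, and no member called in either fit changed sign. In DKO versus Ctrl the higher calls were 1 with voom, and the lower calls were 1 with RLE scaling, 3 with DESeq2, 2 with voom, 1 with the sex-linked class and 1 with the 2 groups alone without DKO 1. In TKO versus DKO the higher calls were 0 with only the 2 groups, and the lower calls 0 with no filter, 2 with voom and 0 with only the 2 groups. In TKO versus MKO the higher calls were 11 with 22 libraries and the lower calls 2 with voom. With 22 libraries 23.4% of all genes were called in this comparison, in either direction, beside 13.3% in the main fit. In DKO versus MKO the higher calls were 1 with DESeq2, voom, the sex-linked class and the 2 groups without DKO 1. Interaction calls were 2 with DESeq2, 5 with voom, 1 with 22 libraries (1.05% of all genes called) and 1 with the sex-linked class. Leaving out each library in turn gave 4 to 6 higher and 4 lower in TKO versus Ctrl, 3 to 8 higher and 0 to 1 lower in TKO versus DKO, 4 to 11 higher and 1 to 2 lower in TKO versus MKO, 0 to 1 in each direction in DKO versus Ctrl, 0 in MKO versus Ctrl and DKO versus MKO, and 0 to 4 interaction calls. The highest higher counts against Ctrl, DKO and MKO in TKO, and in the interaction, came without DKO 1. All genes called were then 22.7%, 8.9%, 22% and 1.63%, beside 14.1%, 6.38%, 13.3% and 0.464% in the main fit. For the remaining settings and left-out libraries no share of all genes is given here, so their counts cannot be set against it. The replicate block gave 1 lower call in DKO versus Ctrl (Trim55) and 1 interaction call (Mybpc3). The labels do not say whether same-numbered libraries share more than a number. Of 36 such pairs, 17 had correlated deviations over 0.1 (-0.29 to 0.75). The pairs of TKO and Ctrl were all above 0 (0.08 to 0.43), and those of each other pair of groups lay on both sides of 0. A library matched its own number best in 14 of 72 checks. The cause of these changes in the calls was not tested. Mybphl, Myom3 and Synm, at few CPM, are limited by depth.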
